A study of Mus musculus with 34 samples.

Results

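MOSJ-Dkk1 cells treated with the morpholino DkkMo were compared with cells given no morpholino (NT), both in the log phase of growth. The members of this comparison were the 3 log phase DkkMo libraries and the 3 log phase NT libraries, 6 of the 34 libraries of the series and of its 18 culture libraries, chosen by their labels alone. MOSJ-Dkk1 is a mouse osteosarcoma line that a lentiviral vector drives to make and secrete human DKK1 from a cytomegalovirus promoter, so every group here carries that transgene. Cells were seeded at 500 per cm2, DkkMo was added at 5 µM 24 h later, medium was changed every 2 days, and cultures entered log phase after 6 days. The label of the NT group names its treatment as vehicle. The 3 log phase libraries with scrMo, a control morpholino also at 5 µM that the labels call scrambled and the study describes as carrying mismatches, are used beside the comparison. The 6 libraries of DkkMo and NT cultures under nutritional stress, kept confluent without a change of medium, are used for a test of the difference between conditions. These libraries and the 3 of scrMo under stress also enter the estimate of the spread behind every test, since all 18 culture libraries share 1 fit. With only the 6 libraries compared, 80 genes rose and 52 fell, against 85 and 52. Whether the 3 libraries of a group came from separate cultures is known only from the group size of 3 that the labels state, so p-values measure the spread between these samples.

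DKK1 is a secreted antagonist of the Wnt pathway that binds the co-receptors LRP5 and LRP6, and keeps Wnt ligands from stabilising β-catenin. A translation-blocking morpholino pairs with an mRNA near its start codon and hinders the ribosome without cutting the mRNA, so the level of the targeted mRNA need not fall. DkkMo was designed against the human DKK1 transcript. Reads were counted over mouse genes, so human DKK1 was not measured, and mouse Dkk1 is not listed in the table. The targeted transcript therefore gave no check of the labels.

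The values in the table went through a variance-stabilising transformation and are on a log2 scale. "Change" below means the mean of the 3 DkkMo values minus the mean of the 3 NT values on that scale, with its SE. The transformation compresses differences of genes with few reads, so the normalised read counts recovered from the values are given in every library, and the ratio of their group means stands beside the change. Levels are compared between libraries for a gene and not between genes. A gene was called differentially expressed (DE) at an adjusted p below 0.05 in the moderated test of limma over 16562 genes and a change over 1.5-fold. The libraries held 33.81 to 44.78 megareads on listed genes in the NT group and 29.78 to 32.67 in the DkkMo group, so every DkkMo library was shallower than every NT library. Rank correlations between libraries across genes were 0.9964 to 0.9977 within NT, 0.9931 to 0.9954 within DkkMo and 0.9907 to 0.9943 between the groups, as a description over genes that are not independent. Of the markers of other cell types, 3 of 7 for leukocytes and macrophages, 2 of 5 for endothelium and 1 of 6 for epithelium are listed and none of those for muscle (4) or erythroid cells (3), against 5 of 6 for mesenchyme. None of the 11 listed markers was called DE. Vim, the mesenchymal intermediate filament gene, had 83226, 93553 and 90331 normalised counts in NT and 115399, 116939 and 103002 in DkkMo.

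DkkMo-treated cells in log phase had higher levels of genes of glycolysis and the hypoxia response, of several transcripts of the mitochondrial genome and of some contractile, YAP target and chemokine genes, and lower levels of interferon-stimulated and MHC class I genes. Txnip, which codes for a protein that binds thioredoxin and restrains glucose uptake, had the largest rise on the variance-stabilised scale, and Saa3, an acute phase serum amyloid gene, the largest fall. By the ratio of normalised counts some genes with fewer reads had larger differences, among them Dcn, mt-Tm and Serpinb9e. Of the 16562 genes, 85 rose and 52 fell, which is 0.513% and 0.314% of the genes tested. With no limit on the fold, 887 genes were higher and 738 lower, or 5.36% and 4.46%. The median change of all genes was 0.005. For 3987 genes (24.1%) the DkkMo and NT libraries did not overlap. In libraries of whole cultures, fewer cells that express a gene and less RNA per cell cannot be told apart. On the recovered reads (limma voom), 324 genes rose and 245 fell past the same limits, and these held all 85 of the rises and 51 of the 52 falls.

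**Figure D1:**
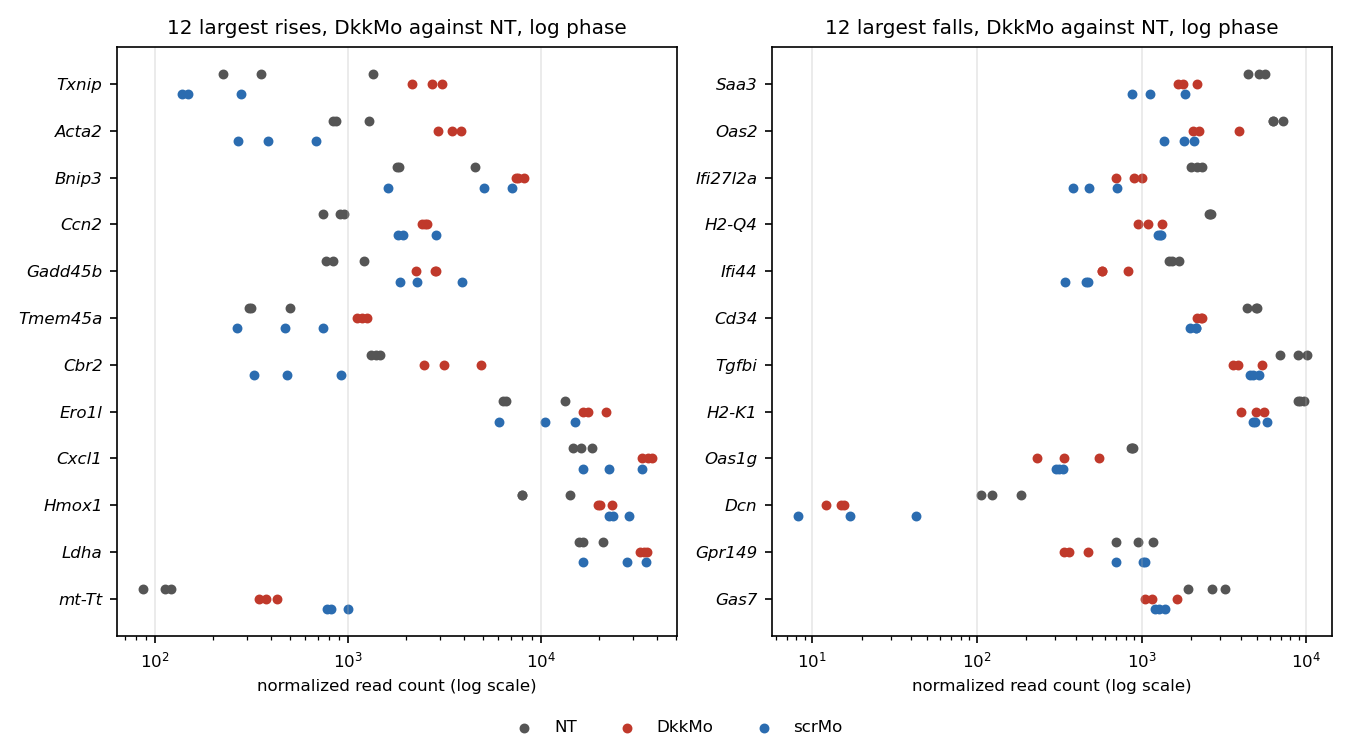
Normalised read counts (log scale) in each log phase library for the 12 largest rises and the 12 largest falls between DkkMo and NT, predicted genes left out, with points for NT (grey), DkkMo (red) and scrMo (blue). The red points lie apart from the grey points for all 24 genes, which was part of how these genes were chosen, while the blue points lie near the red for Ccn2 or Cd34, near the grey for Gpr149 and beyond the grey for Acta2 or Cbr2.

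Txnip (chr3:96557957-96561883, protein coding) had 1343, 353 and 225 normalised counts in the 3 NT libraries and 2733, 3086 and 2148 in the 3 DkkMo libraries. The first NT library was far above the other NT libraries, and still below each DkkMo library. The change was 1.91 ± 0.28 (SE, n = 3 per group, adjusted p = 0.00019, limma), a ratio of 4.15. The predicted gene Gm15441 overlaps Txnip on the opposite strand, and whether the reads were counted by strand is not given in the sources used here, so their reads may not be separable. Gm15441 went from 368, 98.3 and 75.3 to 706, 887 and 621 and rose by 1.35. The scrMo libraries had 280.3, 138 and 148 counts of Txnip, -0.87 from NT (adjusted p = 0.0271), so scrMo and DkkMo moved in opposite directions from NT. Of the other listed genes of the glucose response of the transcription factor MondoA, Mlxip (MondoA itself) had a change of -0.24, which passed the test (adjusted p = 0.0329, limma) below the fold limit, and the list of 7 had a median of -0.002.

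Many genes of glycolysis and the hypoxia response rose. Cells that sense low oxygen stabilise the HIF transcription factors, which bind short elements in promoters and raise glycolytic enzymes, regulators of mitochondrial turnover and the prolyl hydroxylases that in turn degrade HIF. Of the 34 listed members of 37, 17 were called DE and all 17 were higher, while 27 were higher and 1 lower with no fold limit. The median change was 0.60, against 0.005 for all genes. Among the 17 glycolysis members 6 rose, Pfkl, Pfkp, Tpi1, Pgk1, Pgam1 and Ldha, and among the 17 hypoxia members 11 rose, Bnip3, Egln1, Ankrd37, Ndrg1, Pdk1, P4ha1, P4ha2, Kdm3a, Higd1a, Hilpda and Ero1l. Vegfa, which codes for the angiogenic growth factor induced by low oxygen, was the only member that was lower at an adjusted p below 0.05, with 25808, 25644 and 25796 counts in NT and 18317, 16961 and 19181 in DkkMo (change -0.50, adjusted p = 6.75e-05, limma). Car9 had 89.7, 73.3 and 62.2 counts in NT and 164, 186 and 154 in DkkMo, and its change of 0.47 passed the test (adjusted p = 8.34e-05, limma) below the fold limit. Slc16a3 (-0.13), Egln3 (-0.01), Pfkfb3 (0.05) and Pfkfb4 (0.01) did not pass.

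Bnip3 (chr7:138890836-138909519), which codes for a mitochondrial outer membrane protein of mitophagy, had 4523, 1844 and 1802 counts in NT and 7569, 7396 and 8136 in DkkMo, and rose by 1.52 ± 0.34 (adjusted p = 0.00576, limma, ratio 2.83). The first NT library held more than the other NT libraries together. The groups did not overlap, which was part of how the largest rises were chosen. The predicted genes Gm18258 and Gm45507 overlap Bnip3 on the opposite strand, and Gm45507 rose by 1.49. Ero1l (chr14:45283087-45318771), the endoplasmic reticulum oxidase that supplies oxidising power for disulfide bonds, had 13271, 6618 and 6371 counts in NT and 17506, 16439 and 21700.4 in DkkMo (change 1.13 ± 0.24, adjusted p = 0.00489, limma). Its first NT library was again the highest of NT and below all DkkMo libraries. Ldha (chr7:46841475-46855627), the lactate dehydrogenase subunit that regenerates NAD+ in glycolysis, had 21079, 16496 and 15706 counts in NT and 35547, 34324 and 32564 in DkkMo. The 3 DkkMo libraries lay close together above all NT libraries, and the change was 0.94 ± 0.17 (adjusted p = 0.00122, limma). In scrMo Ldha had 35192, 16478 and 27829 counts and Bnip3 7086, 1612 and 5046. Their differences of DkkMo from scrMo, 0.43 (adjusted p = 0.0756, limma) and 0.92 (adjusted p = 0.0528, limma), did not pass the test. For Ero1l that difference was 0.88 and passed (adjusted p = 0.0122, limma).

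Pdk1, the kinase that shuts pyruvate out of the mitochondrion, had 1572, 985 and 1029 counts in NT and 2257, 2629.8 and 2518 in DkkMo (change 0.92 ± 0.19). Pfkl, the liver type phosphofructokinase, had 4086, 2704 and 2718 in NT and 6179, 5858 and 5682 in DkkMo (change 0.86 ± 0.18), and Hilpda, a lipid droplet protein, 845, 594 and 532 in NT and 1459, 1191 and 1348 in DkkMo (change 0.81 ± 0.11). In all 3 genes the groups did not overlap and the first NT library was the highest of NT. The prolyl 4-hydroxylase subunits of collagen processing moved with them, P4ha2 from 2958, 2036 and 1944 to 4089.5, 4037 and 4307 (change 0.79) and P4ha1 from 7228, 5686 and 5661 to 9699, 9259 and 10272 (change 0.64). The 22 collagens themselves had a median change of 0.018 and none was called DE.

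The list median in each library, relative to the NT mean, was 0.21, -0.09 and -0.12 in the NT libraries, 0.65, 0.52 and 0.59 in the DkkMo libraries and 0.61, -0.16 and 0.28 in the scrMo libraries. Every DkkMo library was above every NT library, and the scrMo libraries spread over the whole range of both. With all 18 culture libraries in the fit 17 members were called DE, with only the 6 libraries compared 16 were, and with the 9 log phase libraries 17 were with the replicate number as a block and 8 without it. Among those lost without the block were Bnip3, Ero1l, Pdk1, Pfkl and P4ha1. Leaving out the NT libraries in turn, from the first to the third, gave 22, 13 and 12 members, and leaving out the DkkMo libraries 14, 19 and 16. P4ha1 lost its call without the second NT library (change 0.584) or the third (0.581), at a fold just under the limit. Ndrg1 was the one DE member whose libraries overlapped between the groups, with 8207, 4779.9 and 4653 counts in NT and 9854, 8159.7 and 10543 in DkkMo. Whether the state of the first NT culture or the spread among scrMo cultures has a part in these values was not tested.

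The promoters of these genes are shown because the list turns on a response with a known DNA element, and the 3 printed are those of the DE members with the largest changes that hold it. The element core was searched as ACGTG and GCGTG on both strands in 250 bases before to 50 after each annotated start (RefSeq, GRCm38.p6), a search added after the changes were seen. It also occurs inside the E box CACGTG. Of the 31 members with a promoter in the table, 29 held a match (93.5%), against 6894 of 10521 genes tested with a promoter (65.5%). Within the list 14 of 15 DE members and 15 of 16 others held a match. The letters are short and rich in CpG, and a match is no proof of a binding site. The 250 bases before the start are given, 5′ to 3′ on the strand of the gene, with matches on either strand in capitals.
Bnip3, chr7:138909507-138909756, minus strand: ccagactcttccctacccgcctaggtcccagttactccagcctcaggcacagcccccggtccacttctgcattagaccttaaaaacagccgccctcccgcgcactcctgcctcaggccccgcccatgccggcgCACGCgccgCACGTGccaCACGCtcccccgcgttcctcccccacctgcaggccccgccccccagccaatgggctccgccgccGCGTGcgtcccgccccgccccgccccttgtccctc
Ldha, chr7:46845554-46845803, plus strand: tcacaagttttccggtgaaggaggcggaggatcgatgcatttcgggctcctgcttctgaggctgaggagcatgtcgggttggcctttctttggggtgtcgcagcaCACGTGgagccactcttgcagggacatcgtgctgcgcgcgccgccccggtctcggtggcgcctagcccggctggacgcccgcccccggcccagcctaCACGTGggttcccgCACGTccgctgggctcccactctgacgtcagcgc
Pdk1, chr2:71872974-71873223, plus strand: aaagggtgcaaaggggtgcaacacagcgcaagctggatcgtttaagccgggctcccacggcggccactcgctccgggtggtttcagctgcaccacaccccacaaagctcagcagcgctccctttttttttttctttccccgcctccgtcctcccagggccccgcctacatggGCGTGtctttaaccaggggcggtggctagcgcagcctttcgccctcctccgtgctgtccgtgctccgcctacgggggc

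**Figure D2:**
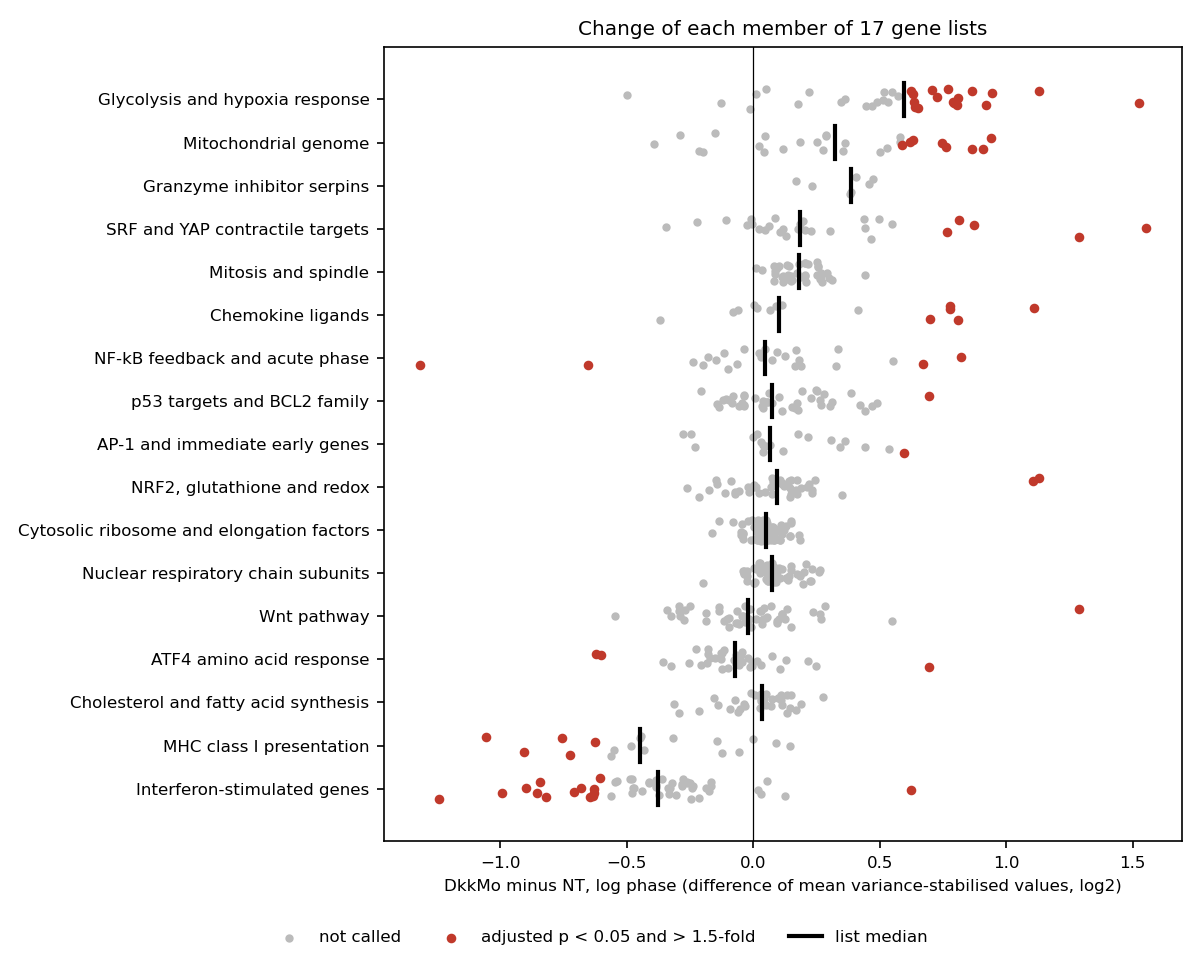
Change between DkkMo and NT in log phase (log2) for each listed member of 17 gene lists, with DE members in red, others in grey and the list median as a black bar. Glycolysis and hypoxia genes have a median of 0.60 and mitochondrial transcripts of 0.32, interferon-stimulated genes of -0.38 and MHC class I genes of -0.45, while ribosomal proteins and nuclear respiratory chain subunits stay close to 0.

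Interferon-stimulated genes fell. Cells sense viral nucleic acids through receptors of the RIG-I, OAS and ZBP1 families, secrete type I interferon, and answer it through a complex of transcription factors that includes IRF9 and binds the interferon-stimulated response element. Of the 54 listed members of 62, 13 fell and 1 rose past both limits, and 39 were lower and 1 higher with no fold limit. The median change was -0.38. The 13 that fell were the sensors Zbp1, Oas1a, Oas1g, Oas2 and Oasl2, the transcription factor Irf7, the effectors Mx1, Isg15, Ifi44, Usp18, Cmpk2 and Ifi203, and Gbp3. Irf1, a transcription factor that NF-kB and interferon γ also induce, was the member that rose, from 3686, 2882 and 2817 counts to 4822, 4782 and 5201 (change 0.62, adjusted p = 0.048, limma), and it kept its call without the first NT library and lost it without any other NT or DkkMo library.

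Oas2 (chr5:120730333-120749853), which makes the 2′-5′ oligoadenylate that activates RNase L, had 6329, 6289 and 7273 counts in NT and 2056, 2229 and 3929.8 in DkkMo. All DkkMo libraries were below NT, the third least so, and the change was -1.24 ± 0.16 (adjusted p = 5.22e-05, limma, lower by a factor of 2.42). Oas1g and Oas1a also had their highest DkkMo value in the third library, with 883, 867 and 878 in NT and 339, 232 and 553 in DkkMo for Oas1g (change -0.90) and 1162, 1182 and 1270.5 and 531, 399 and 797 for Oas1a (change -0.84). These are close paralogues in a gene cluster, and how reads shared between them were counted is not given in the sources used here. Ifi44 (chr3:151730922-151749960) had 1685, 1460.4 and 1535 counts in NT and 578, 577 and 833 in DkkMo (change -0.99 ± 0.09). Zbp1, the sensor of Z-form nucleic acid, had 2721, 3125 and 3552 in NT and 1633, 1580.1 and 1586 in DkkMo, and Irf7, the factor that amplifies interferon production, 3391, 3465 and 3542 and 1762, 1905 and 1865. Their changes were -0.85 ± 0.08 and -0.82 ± 0.08, and the DkkMo libraries of both lay within a narrow range below NT. Outside the list, the interferon-inducible gene Ifi27l2a had 2158, 1992 and 2331 in NT and 900.4, 701 and 1003 in DkkMo (change -1.10), and Gbp9, a guanylate binding protein gene, 739, 753 and 809 and 297, 288 and 370.2 (change -0.86).

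scrMo moved the same list further from NT. The list median was -1.004 for scrMo minus NT and 0.57 for DkkMo minus scrMo, and in single libraries it was -0.51, -0.31 and -0.35 in DkkMo and -0.97, -1.10 and -0.93 in scrMo. Both comparisons share the NT libraries. Zbp1 had 826, 634 and 802 counts in scrMo, with a difference DkkMo minus scrMo of 0.88 (adjusted p = 6.93e-07, limma), and Irf7 1152, 801 and 986, with a difference of 0.77 (adjusted p = 1.97e-06, limma). Oas1a had 528, 497 and 590.4 and a difference from DkkMo of 0.04 (adjusted p = 0.847, limma), which did not pass.

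The interferon response element, searched as GAAANNGAAA on both strands, was found in 22 of 41 members with a promoter in the table (53.7%), against 373 of 10521 genes tested (3.55%). It was in 5 of the 10 DE members with a promoter and in 17 of 31 others, so its presence did not set the DE members apart. The promoters of the 3 DE members with the largest changes that hold it before the start are printed to show the element on which this family turns, with the matches, some overlapping, in capitals.
Oas1g, chr5:120887614-120887863, minus strand: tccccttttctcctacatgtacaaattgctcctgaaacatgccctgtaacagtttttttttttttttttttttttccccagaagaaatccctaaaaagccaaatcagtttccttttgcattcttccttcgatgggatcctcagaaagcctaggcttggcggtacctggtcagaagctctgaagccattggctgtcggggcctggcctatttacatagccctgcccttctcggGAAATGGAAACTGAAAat
Oas1a, chr5:120907526-120907775, minus strand: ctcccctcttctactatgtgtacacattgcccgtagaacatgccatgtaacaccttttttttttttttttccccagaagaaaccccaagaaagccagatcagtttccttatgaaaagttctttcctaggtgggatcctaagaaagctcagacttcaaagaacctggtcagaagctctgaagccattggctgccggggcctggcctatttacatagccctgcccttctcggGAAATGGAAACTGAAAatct
Gbp3, chr3:142559794-142560043, plus strand: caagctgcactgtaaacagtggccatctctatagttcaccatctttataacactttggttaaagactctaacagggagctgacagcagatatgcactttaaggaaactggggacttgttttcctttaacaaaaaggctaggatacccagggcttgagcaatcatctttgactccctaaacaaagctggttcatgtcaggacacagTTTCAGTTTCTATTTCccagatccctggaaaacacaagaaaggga
The 2 Oas1 promoters carry the matched block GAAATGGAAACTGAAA beside the start, and that of Gbp3 carries matches in the other orientation, in the block TTTCAGTTTCTATTTC, which is not an exact inversion of the Oas1 block. Gbp3 itself had 1667, 1777 and 1849.7 counts in NT and 949, 1109 and 1069.9 in DkkMo (change -0.63).

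Genes of MHC class I presentation, which bring peptides cut by the immunoproteasome to the cell surface, fell with them. Of the 18 listed members of 19, 5 fell past both limits, 12 were lower with no fold limit and none rose, with a median of -0.45. H2-Q4 (chr17:35379617-35385290), a class Ib heavy chain gene, had 2658, 2615 and 2575 counts in NT and 1097, 949 and 1338 in DkkMo (change -1.05 ± 0.07, adjusted p = 9.08e-08, limma). H2-K1 (chr17:33996017-34000347), a classical heavy chain gene, had 9679.6, 9138 and 8893 and 4979.9, 3991 and 5529.6 (change -0.91 ± 0.09), and H2-D1 22017, 21381 and 20781 and 13876, 10960.3 and 13863 (change -0.72). In each of them the NT libraries differed little among themselves and stood above all DkkMo libraries. These heavy chain genes are near-identical in places, and how reads shared between copies were counted is not given in the sources used here. Psmb8, an immunoproteasome subunit, had 1411, 1446 and 1402 counts in NT and 828, 675 and 704 in DkkMo (change -0.76), and Tap2, a subunit of the peptide transporter, 949, 1025 and 995 and 541, 542 and 579.7 (change -0.62). B2m, the light chain, had a change of -0.55 and Nlrc5, the transactivator of the class, of -0.45, both past the test and below the fold limit. Pdia3 (0.15), Psme1 (0.09), Psme2 (-0.00) and Psmb10 (-0.06), which act in peptide loading and the proteasome, did not pass. The scrMo libraries had 1290.5, 1258 and 1307 counts of H2-Q4 and 5783, 4911 and 4753 of H2-K1, and the differences of DkkMo from scrMo, -0.16 and -0.09, did not pass the test.

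**Figure D3:**
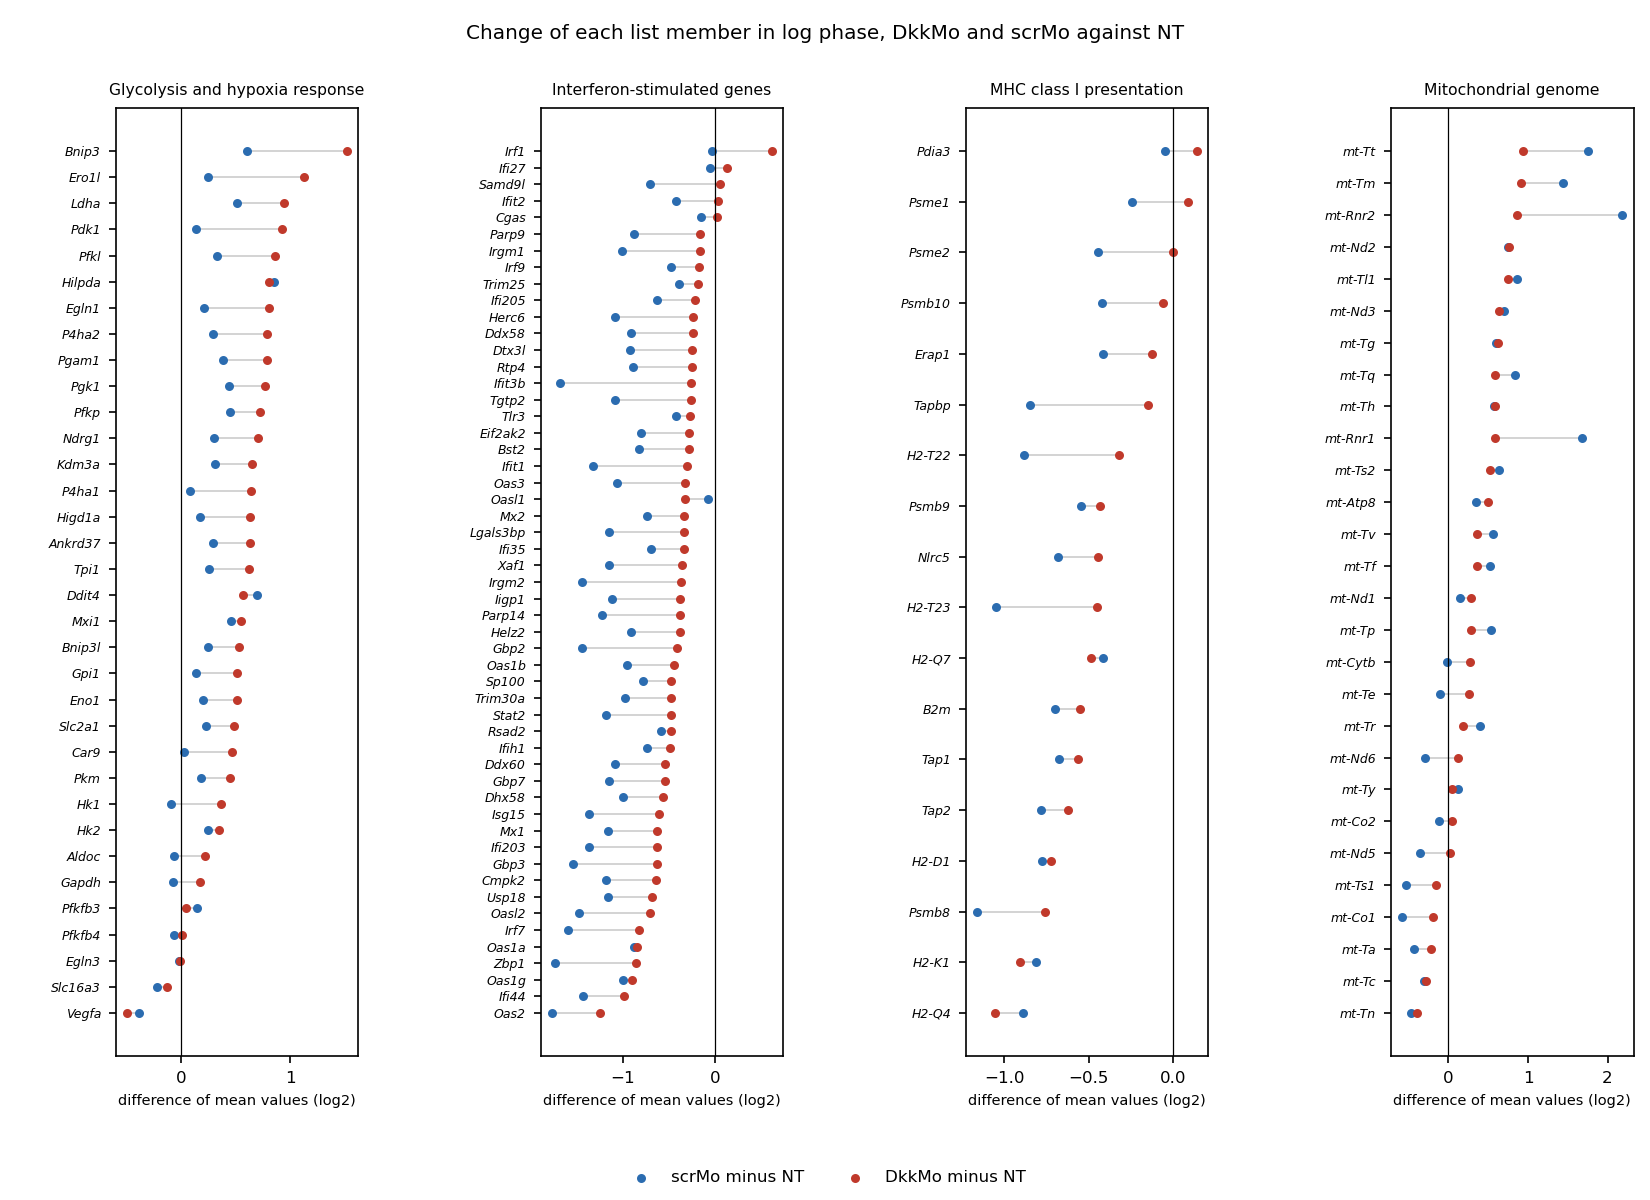
Change of the listed members of 4 lists in log phase (log2), 1 interferon-stimulated gene left out, DkkMo minus NT in red and scrMo minus NT in blue, joined by a line and ordered by the red value. Both differences use the same NT libraries. The red points lie to the right of the blue ones for most glycolysis, hypoxia and interferon genes, while the mitochondrial rRNA mt-Rnr2 is at 0.87 in DkkMo and 2.19 in scrMo.

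Many transcripts of the mitochondrial genome were higher. This genome codes for 13 subunits of the respiratory chain, 2 ribosomal RNAs and 22 tRNAs, all copied from long precursors, and libraries made from poly(A) RNA hold the rRNAs and tRNAs largely as parts of processing intermediates. Of the 28 listed members of 37, 8 rose and none fell past both limits, and 16 were higher and 2 lower with no fold limit, with a median of 0.32. mt-Rnr2, the large rRNA, had 12887, 14824 and 15054 counts in NT and 24174, 26824 and 27577 in DkkMo (change 0.87 ± 0.11, adjusted p = 4.58e-05, limma). mt-Nd2, a complex I subunit, had 43859, 49608 and 50529.8 and 78278, 85794 and 80214 (change 0.76 ± 0.08), and mt-Nd3, of the same complex, 126, 147 and 130.0 and 303, 354 and 293 (change 0.63). The groups did not overlap for any of these genes, and mt-Nd3 lost its call without the second DkkMo library, at a change of 0.581.

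The other 5 that rose were tRNAs, mt-Tt, mt-Tm, mt-Tl1, mt-Tg and mt-Tq. mt-Tt had 86.1, 120.3 and 112 counts in NT and 427, 377 and 347 in DkkMo, a ratio of 3.61, and mt-Tm 49.7, 60.5 and 69.7 and 204, 304 and 293, a ratio of 4.45. On the variance-stabilised scale their changes were 0.94 and 0.91. mt-Tl1 had 1154, 1108 and 1334 in NT and 2023, 2283 and 2273 in DkkMo (change 0.75). Other members did not move that way: mt-Co1 had a change of -0.20, mt-Co2 of 0.04 and mt-Nd5 of 0.02, none past the test, and mt-Tn (-0.39) and mt-Tc (-0.29) were lower. The list median per library was 0.34, 0.40 and 0.32 in DkkMo and 0.44, 0.37 and 0.42 in scrMo. For mt-Rnr2 the scrMo libraries had 58097, 82079 and 59879 counts, above all DkkMo libraries (DkkMo minus scrMo -1.32, adjusted p = 3.70e-07, limma), whereas for mt-Nd2 they had 79928, 83975 and 77626 (0.02, adjusted p = 0.915, limma). The 59 listed nuclear-encoded subunits of the respiratory chain had a median of 0.075, with Cox7b alone past the test at 0.22 (adjusted p = 0.0497, limma), and the 75 cytosolic ribosome and elongation factor genes a median of 0.05 with none past it.

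**Figure D4:**
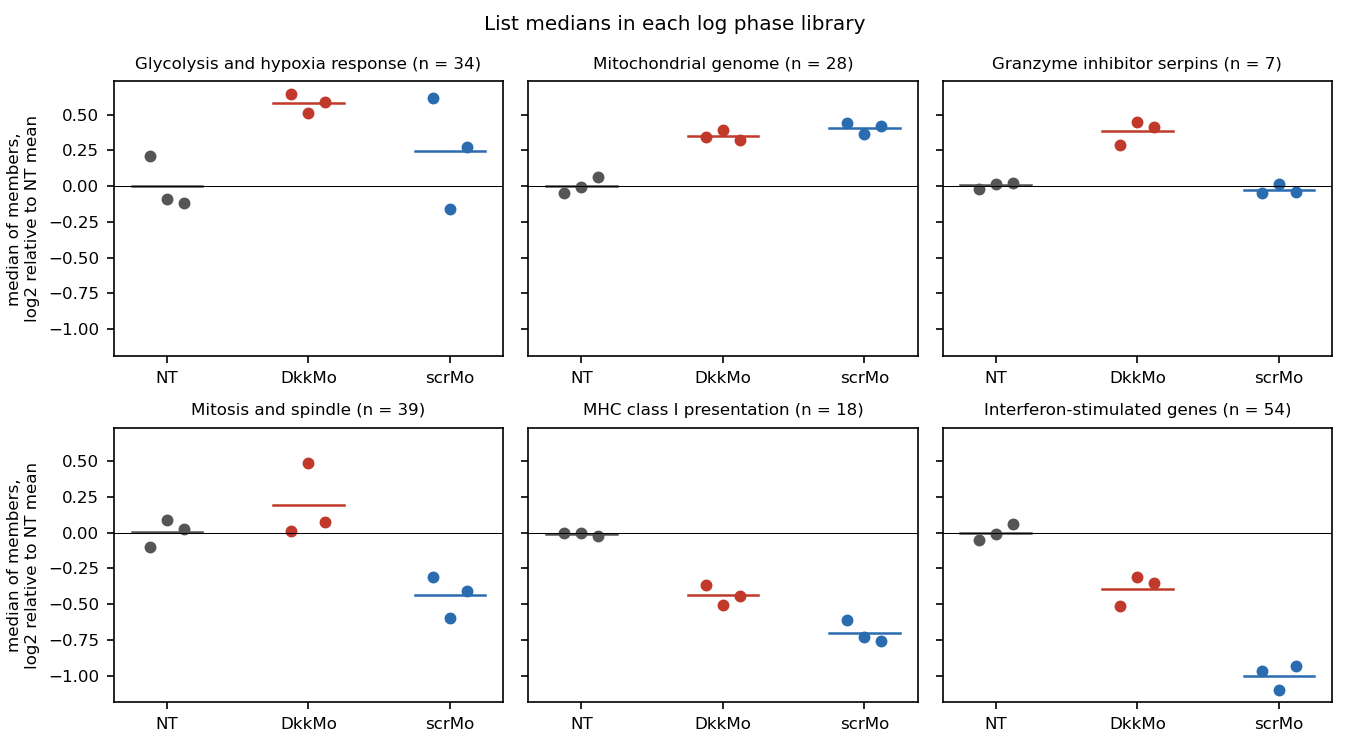
Median over the members of 6 gene lists in each log phase library (log2, relative to the mean of the 3 NT libraries), with 1 point per library and a line at the group mean. The DkkMo libraries lie apart from NT for every list but mitosis and spindle, where the second DkkMo library is at 0.49 and the others at 0.01 and 0.07.

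Contractile and YAP target genes held some of the largest rises. Serum response factor drives actin and smooth muscle genes when free actin is used up, and YAP with TEAD drives Ccn1, Ccn2 and Ankrd1 when cells are spread or sparse. Of the 29 listed members of 35, 5 rose and none fell past both limits, and 10 were higher and 1 lower with no fold limit, with a median of 0.19. Acta2 (chr19:34241090-34255590), the smooth muscle α-actin gene, had 1286, 836 and 866 counts in NT and 3465, 3849 and 2934 in DkkMo (change 1.55 ± 0.15, adjusted p = 2.93e-06, limma, ratio 3.43). All DkkMo libraries lay above NT, and the scrMo libraries, at 679, 269 and 383, lay below NT (-0.88, adjusted p = 0.000306, limma). Actg2, the enteric smooth muscle actin gene, had 267, 180.2 and 193 in NT, 579.9, 533 and 505 in DkkMo and 206, 148 and 145 in scrMo (change 0.81 from NT). Other contractile genes such as Tagln (0.18), Tpm1 (0.13) and Acta1 (-0.00) did not pass the test.

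Ccn2 (chr10:24595442-24598683), the connective tissue growth factor gene, had 907, 956 and 745 counts in NT, 2417, 2557 and 2512 in DkkMo and 2867, 1810.1 and 1936 in scrMo. Both morpholino groups lay above NT without overlap, with a change of 1.29 ± 0.11 for DkkMo (adjusted p = 5.17e-07, limma) and a difference of DkkMo from scrMo of 0.18 (adjusted p = 0.236, limma). Gm15270, a predicted gene on the opposite strand of Ccn2, rose by 0.89. Ankrd1 followed the same order, from 915, 882 and 775 in NT to 1631, 1536 and 1763 in DkkMo and 1810.3, 1452 and 1503 in scrMo. Thbs1, the matrix glycoprotein thrombospondin 1, had 14985, 14328 and 14107 in NT and 19452, 39390.1 and 24941 in DkkMo, where the second library was far above the others (change 0.87 ± 0.16), and 10177, 7495 and 10247 in scrMo (-0.64 from NT). Tgfbi, a matrix protein gene induced by TGF-β, moved the other way, from 6952, 8859.9 and 10049 to 3872, 5396 and 3607 (change -0.96 ± 0.12), and was the only one of the 38 listed TGF-β and BMP genes called DE. Their median was -0.014.

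Of 53 listed genes of the Wnt pathway, of 76, Ccn2 alone was called DE. With no fold limit 5 were higher and 9 lower, beside 5.36% and 4.46% of all genes, and the median was -0.02. Among ligands Wnt7b had 382, 338 and 366 counts in NT, 205, 167 and 176 in DkkMo and 345, 344 and 386 in scrMo. The DkkMo libraries stood apart below both other groups, and the change of -0.55 ± 0.06 (adjusted p = 3.90e-06, limma, lower by a factor of 1.98) fell short of the fold limit on the variance-stabilised scale. On the recovered reads (limma voom) Wnt7b was DE with a change of -0.99, as were 2 genes with few reads, the Wnt receptor gene Ror1 (-1.04) and Dkk2, which codes for a secreted relative of DKK1 (-1.03). Of the feedback genes and direct targets of β-catenin, Axin2 had a change of -0.02, Lef1 of -0.09 and Tcf7 of -0.06, none past the test, while Ccnd1 (-0.18) was lower and Myc (0.28) higher below the fold limit. The receptors Lrp5 (0.13) and Lrp6 (-0.10), to which DKK1 binds, and β-catenin, Ctnnb1 (-0.14), did not pass. Nkd1, Lgr5, Rnf43, Znrf3, Notum and Sp5 have no value in the table.

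Some chemokine genes of inflammation rose, while the acute phase gene Saa3 and the complement gene C3 fell. Of the 14 listed chemokine ligands of 26, 5 rose and none fell, Cxcl1, Cxcl5, Ppbp, Ccl9 and Ccl2, which draw neutrophils or monocytes, with a median of 0.10. Cxcl1 (chr5:90891241-90893115) had 18377, 16076 and 14579 counts in NT and 37441, 33269 and 35702 in DkkMo (change 1.11 ± 0.16, adjusted p = 0.000144, limma). Cxcl5 had 1018, 718 and 874 and 1468, 1893 and 1795 (change 0.81), and Ccl2 12624, 14883 and 14354 and 23777, 21555 and 23072 (change 0.70). No NT library reached the lowest DkkMo library for any of them. In scrMo Cxcl5 had 311, 134 and 246 counts, below NT (-1.28, adjusted p = 1.24e-06, limma). Ppbp had 79.9, 62.7 and 75.3 in NT and 151, 485 and 189 in DkkMo, and without the second DkkMo library, the highest, its change was 0.49 and short of the fold limit. With log2 of the normalised counts (1 added) in place of the deposited values, Cxcl5 and Ppbp lost their call and 3 chemokine genes kept it.

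Of the NF-kB list, 25 of 33 with a value and a median of 0.046, the feedback inhibitors Tnfaip3 and Nfkbia rose and the effectors Saa3 and C3 fell. Among the 12 effectors with a value, 2 were higher and 3 lower with no fold limit. Tnfaip3, the ubiquitin-editing enzyme A20, had 3398, 2815 and 2418 counts in NT, 4974, 4817 and 6066 in DkkMo and 5604, 4356 and 5106 in scrMo (change 0.82 ± 0.10 for DkkMo). Saa3 (chr7:46711998-46715700) had 5586, 4461 and 5204 in NT, 2180.0, 1672 and 1775 in DkkMo and 1833, 873 and 1124 in scrMo, and fell by 1.32 ± 0.23 (adjusted p = 0.00112, limma, lower by a factor of 2.71). NT lay apart above both morpholino groups. With log2 of the normalised counts (1 added) in place of the deposited values, the call of Saa3 was lost. C3, the central complement component, fell from 21330.2, 19575 and 22544 to 11611, 14953 and 13561 (change -0.66, adjusted p = 0.0407, limma). Its call was lost without any NT library or without the DkkMo library 1 or 3, with adjusted p from 0.0701 to 0.146 in the same test. The stress-response gene Gadd45b, which also follows NF-kB, had 1215, 838 and 769 in NT, 2839, 2256 and 2844 in DkkMo and 3894, 1849.5 and 2290.3 in scrMo (change 1.28).

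Oxidative and growth stress genes changed singly. Hmox1 (chr8:75093621-75100589), the haem oxygenase gene, had 14058, 8010.4 and 7932 counts in NT, 23365, 19707 and 20317 in DkkMo and 28609, 22526 and 23617 in scrMo, and rose by 1.10 ± 0.16 in DkkMo (adjusted p = 0.000197, limma). Cbr2, a mitochondrial carbonyl reductase gene, had 1461, 1391 and 1311 in NT, 3133, 4878 and 2472 in DkkMo and 925, 327 and 482 in scrMo. The change was 1.13 ± 0.20 from NT for DkkMo and -1.05 for scrMo, again in opposite directions. These were the DE members among 44 listed of 52 genes of NRF2, glutathione and redox defence, whose median was 0.093. Of the genes of the amino acid response of ATF4, 38 of 42 with a value and a median of -0.073, Gdf15 rose (0.70) while Nupr1 (-0.62) and Cth, the enzyme that makes cysteine from cystathionine (-0.60), fell. The element of ATF4, TGATGNAA, was in 11 of 31 promoters of that list (35.5%) and in 2.72% of all. Cth had 1071, 914 and 873 counts in NT, 646, 416 and 578 in DkkMo and 1259, 1478 and 1529.5 in scrMo, where it was higher than in NT (0.47). Nupr1 lost its call without the first NT, the second DkkMo or the third DkkMo library, at changes of -0.552, -0.535 and -0.569, and Cth without the first NT or second DkkMo library, at -0.534 and -0.477.

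Of 43 listed p53 targets and BCL2 family genes of 51, 12 were higher and none lower with no fold limit, among them Cdkn1a (0.27), Mdm2 (0.28), Bax (0.39) and Btg2 (0.44), and Gdf15 alone was DE. Counts with no fold limit in this paragraph stand beside 5.36% of all genes higher and 4.46% lower. The 12 became 4 with only the 6 libraries compared, and leaving out the NT libraries in turn gave 12, 7 and 4 and the DkkMo libraries 12, 11 and 8. The call of Gdf15 was lost without the first DkkMo library, at a change of 0.578. Of the 12 granzyme inhibitor serpins, 7 had a value and 6 of these were higher with none called DE. Serpinb9e, with 4.44, 9.26 and 11.3 counts in NT and 46.6, 45.7 and 49.8 in DkkMo, had a ratio of 5.68 and a change of 0.47, and Serpinb9b went from 107, 117 and 119 to 205, 226 and 249 (ratio 1.98). By limma voom on the recovered reads 6 of the 7 were DE. These serpins are close paralogues, so reads may be shared between them. The 41 genes of DNA replication, with 9 higher and none lower, had a median of 0.126. None of the 9 passed without the first NT library, without the second DkkMo library or with only the 6 libraries compared, and without the third NT library 2 genes did. The 39 of mitosis, with 3 higher and none lower, had a median of 0.18. The number higher is near the share of all genes. No mitosis gene passed without the first NT, the third NT or the second DkkMo library. With only the 6 libraries compared 1 was higher, and without the first DkkMo library 10 were. In single libraries the mitosis median was 0.01, 0.49 and 0.07 in DkkMo, so it rested mostly on the second.

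Of the immediate early genes Dusp1, a MAP kinase phosphatase gene, rose (0.60) and lost its call without the third NT or second DkkMo library, at 0.523 and 0.557. Egr1 had 13522, 12917 and 12846 counts in NT and 14899.9, 13797 and 14059 in DkkMo (change 0.12, adjusted p = 0.528, limma). Among matrix proteases Mmp9, the gelatinase gene, fell from 385, 319 and 281 to 165, 127 and 131 (change -0.63), the only one of 29 listed of 37 called DE. Without the first NT library its change was -0.555. None of the 19 osteoblast genes was called DE, and Spp1, which codes for osteopontin, had 186214, 194979 and 214487 counts in NT and 133759, 133239 and 135488 in DkkMo (change -0.56, adjusted p = 0.000464, limma). None of the 34 cholesterol and fatty acid genes was called either, with a median of 0.037.

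Aldh1a1, a retinaldehyde dehydrogenase gene used as a marker of stem-like tumour cells, had 32.9, 19.2 and 33.9 counts in NT, 11.1, 6.95 and 8.14 in DkkMo and 36.7, 34.9 and 38.1 in scrMo. The DkkMo libraries lay below all others and the ratio of DkkMo to NT was 0.304, on few reads, while the change on the compressed scale was -0.28 ± 0.06 (adjusted p = 0.00369, limma). Sox2, the stem cell transcription factor, had 1306, 1427 and 1574 in NT, 896, 795 and 989 in DkkMo and 1273, 1666 and 1559.6 in scrMo, and its change of -0.56 ± 0.08 (adjusted p = 0.00023, limma) stopped short of the fold limit. Its difference of DkkMo from scrMo was -0.60 (adjusted p = 4.09e-05, limma). Hsd17b4, a multifunctional enzyme of peroxisomal β-oxidation, had 1790.0, 1765 and 1855 in NT and 1229.7, 1296 and 1201 in DkkMo (change -0.46, adjusted p = 2.24e-05, limma). Of the 19 listed stem cell markers of the study, of 30, only S100a11, a calcium-binding protein gene, was DE, from 6169.8, 7220.1 and 7411 to 12166, 12231 and 10051. The study examined these known markers in its own libraries of this series, so the list is no independent evidence of a direction.

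The remaining large changes belong to no list. Tmem45a (chr16:56805161-56886166), a membrane protein gene, had 502, 308 and 313 counts in NT, 1182, 1109 and 1260.1 in DkkMo and 745, 267 and 469 in scrMo (change 1.22 ± 0.16). Cd34 (chr1:194938819-194961279), a sialomucin of progenitor cells, had 4379.9, 5018 and 4975 in NT, 2181, 2305 and 2329 in DkkMo and 2157, 1977 and 2151 in scrMo (change -0.99 ± 0.07). Dcn (chr10:97479609-97518143), the small matrix proteoglycan decorin, had 124, 106 and 186 in NT and 15.5, 14.9 and 12.2 in DkkMo, lower by a factor of 9.76, the largest ratio among the 12 falls named, while its change on the compressed scale was -0.90. Its scrMo libraries had 8.15, 42.8 and 17.0 counts. Gas7 had 1912, 2663 and 3201 in NT, 1045, 1639.7 and 1156 in DkkMo and 1269, 1214 and 1392 in scrMo (change -0.88). In all 4 genes the NT and DkkMo libraries did not overlap, which was part of how these genes were chosen.

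Some genes fell in DkkMo while scrMo stayed at the level of NT. Gpr149 (chr3:62529077-62605140), an orphan receptor gene, had 699, 956 and 1167 counts in NT, 361, 339 and 476 in DkkMo and 697, 1018 and 1055 in scrMo. The change from NT was -0.89 ± 0.12 (adjusted p = 8.69e-05, limma) and the difference from scrMo -0.87 (adjusted p = 4.40e-05, limma), while scrMo differed from NT by -0.02 (adjusted p = 0.941, limma). Chosen after their values were seen, 4 further DE genes are Vipr2, Thoc7, Fam50a and Gfra1. Vipr2, a receptor gene for vasoactive intestinal peptide, had 1365, 1146 and 1279 in NT, 665, 633 and 783 in DkkMo and 1075, 1379 and 1355 in scrMo. Thoc7, a subunit of the THO complex of mRNA export, had 1731, 1636 and 1650.0, 1039, 879.9 and 959 and 1771, 1533 and 1651 in the same order, and Fam50a, a nuclear protein gene, 2513, 2169 and 2163, 1536, 1297 and 1311 and 2594, 2100.4 and 2075. Their changes from NT were -0.68, -0.66 and -0.63, and the differences of DkkMo from scrMo -0.68, -0.65 and -0.61, all past the test. Gfra1, the GDNF co-receptor gene, had 4360.3, 3819 and 4239, 2101, 1884 and 2520.2 and 2784, 4174 and 3694 (change -0.86, and -0.64 from scrMo). Igfbp7, an insulin-like growth factor binding protein gene also chosen after its values were seen, was of another kind, with 2039, 1837 and 1813 in NT, 3899, 4469 and 3118 in DkkMo and 1571, 683 and 955 in scrMo, so that scrMo lay below NT (-0.75, adjusted p = 0.00141, limma) and DkkMo above it.

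The change from NT to DkkMo was then compared between culture conditions, in the term of the fit that subtracts the log phase change from the change under nutritional stress. It uses 12 libraries with none in common between the conditions. Of the 16562 genes, 254 (1.53%) had a positive difference and 395 (2.38%) a negative one past both limits. Of the 85 genes that rose in log phase, 60 were among the genes whose change differed, and of the 52 that fell, 34. These genes were picked for their change in log phase, whose libraries enter the difference, so nothing is read from these counts. The glycolysis and hypoxia list had a median of -0.064 under stress against 0.60 in log phase, and the difference was called for 22 members, 21 of them negative. The interferon list had a median of 0.30 under stress against -0.38, and the difference was called and positive for 30 members. Relative to the log phase NT mean, the median of this list was -1.576, -1.597 and -1.639 in the stress NT libraries. It was -1.3, -1.299 and -1.264 in stress DkkMo and -1.105, -1.085 and -1.136 in stress scrMo. All stress libraries were thus below log phase NT, and those of scrMo were above NT and DkkMo.

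**Figure D5:**
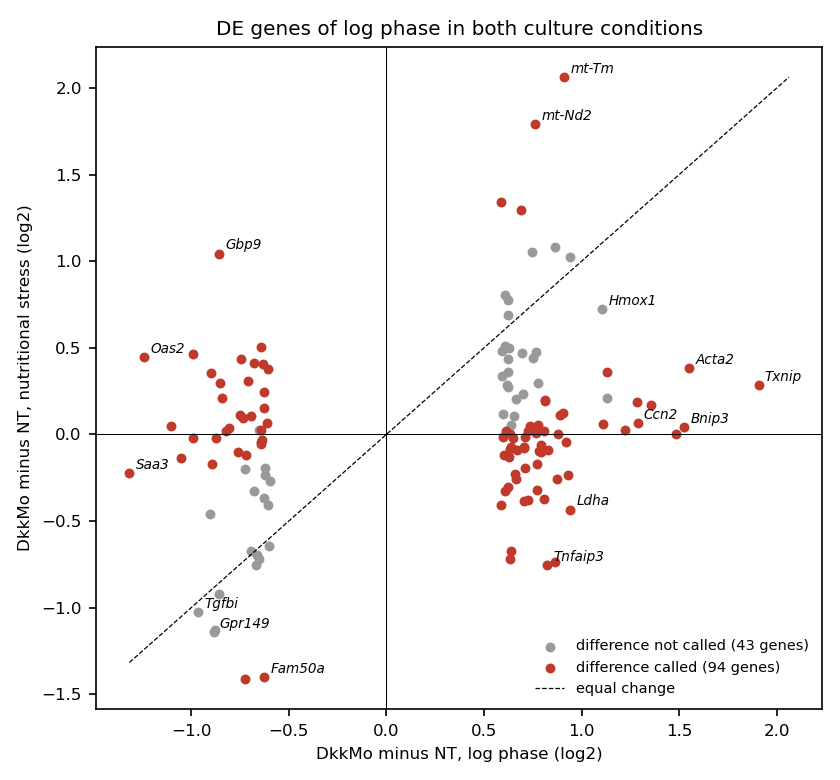
Change between DkkMo and NT (log2) in log phase (x axis) and under nutritional stress (y axis) for the 137 DE genes of log phase, red where the difference between conditions was called (94 genes) and grey otherwise (43), with a dashed line of equal change. Genes such as Bnip3 and Ccn2 lie near 0 on the y axis, Gbp9 lies above it, and Tgfbi and Gpr149 lie near the dashed line.

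The members of the 2 conditions differed gene by gene. Ldha changed by -0.43 under stress (difference -1.38 ± 0.24) and Bnip3 by 0.04 (difference -1.48). Gbp9 changed by 1.04 under stress, Oas2 by 0.45 and Rsad2, the viperin gene, by 0.95, with differences of 1.902 ± 0.10, 1.69 ± 0.23 and 1.43 ± 0.15. Others moved alike in both conditions: Tgfbi changed by -1.03 (difference -0.06, adjusted p = 0.806, limma), Gpr149 by -1.14 (difference -0.25, adjusted p = 0.283, limma), Thoc7 by -0.69 and Sox2 by -0.69. For these the difference did not pass the test, which does not show that the changes were equal. mt-Nd2 rose further under stress, by 1.79 (difference 1.03). With quantile normalization 53.6% of the called differences were positive and with voom 62.3%, against 39.1% here, so the balance of directions in this comparison depended on the scaling.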

How the data were processed

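Total RNA from 18 cultures was selected with oligo(dT) beads and sequenced. The authors aligned reads to GRCm38 with HISAT2 2.1.0, used SAMtools 1.9 and featureCounts of Subread 2.0.0, and deposited variance-stabilised log2 values from DESeq2. StringTie is also named in the submitters' processing notes. Strand setting and handling of multiply mapped reads are not given in the sources used here. The lowest value, 7.2, stands for no reads. The transformation was reversed, and 100% of values came out whole within 0.1 after scaling by size factor. Of 16576 rows 14 were left out, since their values differed by up to 10.27 within a group. A filter of 3 libraries above the lowest value took out no gene.

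The test was that of limma 3.58.1, run in R 4.3.3 (empirical Bayes with trend, 6 group means over 18 libraries, Benjamini-Hochberg adjustment, two-sided) and the fit was tested on simulated data. The named genes are the 12 largest rises and 12 largest falls of DE genes whose NT and DkkMo libraries lie apart. Predicted genes were left out there. To them were added up to 6 DE members of each of 32 lists (the members of smallest adjusted p where fewer than 2 are DE). Also named were Dkk1, Aldh1a1, Hsd17b4 and Txnip whatever their values, and the 4 largest differences between conditions in each direction. The comparison, lists and rules were chosen with earlier results of these data known. Coordinates are from GENCODE M21 for GRCm38 and promoters from RefSeq. The alternatives tried were other filters, scalings, variance models, thresholds, sample sets, a replicate block and leaving out each library. Counting error is small at these depths except for genes with few reads. Tumour libraries were not used. The values of 2 genes, which stay in every fit and list count, are not reported here. The labels give 5 µM of morpholino and 6 days of culture, and the study's text also gives other values.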

Additional observations from a re-analysis of the deposited data

Results flagged for a closer look

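The change from NT to DkkMo differed between nutritional stress and log phase for 649 genes, by the test of that difference in the same limma fit (adjusted p below 0.05 and over 1.5-fold, 16562 genes tested). All values here are the change under stress minus the change in log phase on the variance-stabilised log2 scale. A negative value marks a gene raised less, or lowered more, under stress on that scale, which compresses differences of genes with few reads. Of the named genes 43 were among the 649, and most were named for their change in log phase, whose libraries enter the difference. No group of 3 libraries was tested for an outlying library.

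Among genes of glycolysis, the hypoxia response and collagen hydroxylation the differences were -1.48 for Bnip3, -1.38 for Ldha, -1.60 for Pfkl, -0.97 for Pdk1, -0.61 for Hilpda and -0.89 for P4ha2. Txnip had -1.62. Contractile, YAP target and adhesion genes gave -1.17 for Acta2, -0.62 for Actg2, -1.22 for Ccn2, -0.76 for Ankrd1, -1.13 for Thbs1 and -1.004 for Bcar1. Acta2 had few reads under stress, with mean counts of 21.4 in NT and 63.1 in DkkMo, against 996 and 3416 in log phase. Its negative value on the compressed scale therefore need not mean a smaller fold under stress. For chemokines and NF-kB genes the values were -1.05 for Cxcl1, -0.79 for Cxcl5, -0.73 for Ppbp, -1.57 for Tnfaip3 and -0.76 for Nfkbia, while Saa3 had 1.09. Immediate early and stress genes gave -1.88 for Egr1, -0.81 for Nr4a1, -0.61 for Dusp1 and -1.09 for Gadd45b.

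Interferon-stimulated and MHC class I genes had positive values, 1.69 for Oas2, 1.25 for Oas1g, 1.05 for Oas1a, 1.45 for Ifi44, 1.15 for Zbp1, 0.84 for Irf7, 1.43 for Rsad2, 1.902 for Gbp9, 1.15 for Ifi27l2a, 0.92 for H2-Q4 and 0.66 for Psmb8. So did the mitochondrial transcripts mt-Tm (1.15) and mt-Nd2 (1.03), and Cd34 (0.97), Dcn (0.72) and Mmp9 (0.78). The remaining values were -1.20 for Tmem45a, -0.77 for Cbr2, -0.77 for S100a11 and -0.73 for Rpl30. Cbr2, like Acta2, had low mean counts under stress, 48.4 in NT and 104.7 in DkkMo, against 1388 and 3494 in log phase. Low counts under stress were also seen for Dcn (23.9 in NT and 11.6 in DkkMo), Ifi27l2a (38.1 and 42.8) and Ifi44 (44.4 and 116). Tmem45a had 61.1 and 64.4, and Saa3 105.5 and 63.6, with its stress NT libraries between 49.8 and 197. On the compressed scale the values of these genes need not measure a difference in fold. Rpl30 belongs to the 75 listed cytosolic ribosome and elongation factor genes, of which 32 had a called negative difference and none a positive one. The median change of that list under stress was -0.512, and 2.38% of all genes had a called negative difference.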

How the results depend on the processing

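The 85 rises and 52 falls of log phase were recounted under 20 other settings. With plain log2 values of normalised counts (1 added) they were 291 and 232, and with limma voom on the recovered reads 324 and 245. Neither scale compresses low counts as the deposited one does. With plain log2 values 4 named genes lost their call, C3, Cxcl5, Ppbp and Saa3, and with voom C3 did. With no fold limit there were 887 and 738, and over 2-fold 12 and 4. Leaving out each NT or DkkMo library in turn gave 68 to 105 rises and 45 to 67 falls. The 649 genes whose change differed between conditions became 2215 with plain log2 values, 2187 with voom, 4819 with no fold limit and 80 over 2-fold, and 566 to 769 with 1 library left out. The share of positive differences, 39.1%, was 25.2% among genes above the median gene, 53.6% after quantile normalization, 62.3% with plain log2 values and 62.3% with voom, and the cause was not tested. No named gene changed its direction from NT to DkkMo under any of these settings, and the median change of all genes moved from 0.005 to between -0.008 and 0.010 across scalings.

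NT and DkkMo libraries with the same replicate number did not deviate together in every pair (r = 0.141, 0.109 and -0.019 across genes), so the numbers were not taken to pair the samples. That check left out scrMo. For the glycolysis and hypoxia list, replicate 1 had the highest median in each log phase group, 0.212 in NT, 0.645 in DkkMo and 0.614 in scrMo. Whether the replicate number carries a shared effect was not tested. A fit of the 9 log phase libraries with the replicate block gave 81 rises and 51 falls, and without the block 62 and 50. With the block C3 lost its call among named genes, and without it Bnip3, Ero1l, Nfkbia, P4ha1, Pdk1, Pfkl and C3 did. The median of the glycolysis and hypoxia list, 0.597, ranged from 0.519 to 0.706 with 1 library left out, and that of the interferon list, -0.378, from -0.405 to -0.331. Depth limits statements on genes with few reads, such as Aldh1a1, Dcn and Serpinb9e.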

Other observations

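The gene groups not described above held few DE genes. Their counts with no fold limit stand beside 5.36% of all genes higher and 4.46% lower. Of 41 listed integrin, laminin and focal adhesion genes, 6 were higher and 2 lower with no fold limit, with a median of 0.012. Bcar1, an adhesion docking protein gene, changed by 0.38. The 41 listed lysosome and autophagy genes had a median of -0.016, with Cd68, a lysosomal membrane glycoprotein gene, at 0.58 and Ctsl, a cathepsin gene, at -0.45. Both passed the test below the fold limit.

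Of 38 chaperone genes, 2 were higher and none lower, Cryab at 0.39 and Hspa8 at 0.26, with a median of 0.062. The number higher is near the share of all genes. The 7 listed LXR targets had a median of -0.018, with Abca1, the cholesterol exporter gene, at 40, 43.4 and 38.6 counts in NT and 12.2, 11.9 and 12.2 in DkkMo. All DkkMo libraries were lower, and on the compressed scale its change was -0.34 and Mylip's -0.33. Of 14 aldehyde dehydrogenase genes 1 was higher, Aldh3b1 at 0.38, and 3 lower, among them Aldh3a1 at -0.54. The 26 peroxisome and fatty acid oxidation genes had 3 higher, among them Acadl at 0.23, 3 lower and a median of -0.007. None of the 4 listed cartilage genes passed the test, with Col10a1 at 0.23 and Prg4 at 0.10.

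The E box CACGTG was in 2 of 6 promoters of the MondoA list (33.3%) and in 11.3% of all, and not in the window of Txnip. The sterol element TCACNCCAC was in 1 of 25 promoters of the cholesterol and fatty acid list (4.0%) and in 1.38% of all.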
